A study of Prunus dulcis with 36 samples.

Results

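The data described here are the expression levels of 3 unigenes for enzymes that cut or build sugar chains, measured in abnormal and normal fruits of ‘ZhiPi’, an almond cultivar. They are a glycosyl hydrolases family 28 unigene of the pectate lyase superfamily (TRINITY_DN20503_c0_g2), a glycosyltransferase like family 2 unigene (TRINITY_DN23864_c0_g1) and a nucleotide-diphospho-sugar transferase unigene (TRINITY_DN27333_c2_g3). They were picked by name, as carbohydrate enzymes that the study of these fruits assayed by RT-qPCR, and they are 3 of the 8676 unigenes that the deposited columns list. The study assembled more unigenes than these, and how the listed ones were chosen was not determined here. Shares of listed unigenes below are therefore not shares of the whole assembly. According to the study, the assayed genes were drawn at random from its differentially expressed genes. The 3 thus come from a set already called differential in these data. A unigene is a transcript assembled from the reads without a genome. No other listed unigene came from the assembly clusters of these 3, so each was the only unigene of its cluster here.

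The samples were whole fruitlets, abnormal or normal, collected at 12, 17, 22, 27, 32 and 37 days after flowering (DAF). Abnormal fruits were those with halted, atrophied growth, taken from branches that also carried normal fruits, and every replicate was a mix of several fruits. This gives 12 groups with 3 replicates each, 36 samples in all, of a single cultivar with no transgene or treatment. The deposited value is 1 mean normalized FPKM (fragments mapped to a transcript, scaled to its length and to the library size) per unigene and group. No value per replicate was used, so the differences below have no standard deviation, no test and no P-value, and the order of neighbouring levels has no spread to be read against. RNA came from whole cut and mixed fruits, so less RNA per cell and fewer cells of a type cannot be told apart. The annotation used here was held in part, and tissue markers were not checked.

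Plant cell walls are networks of cellulose, hemicellulose and pectin, and fruit growth, softening and shedding all involve building or taking apart these polymers. Family 28 of the glycosyl hydrolases holds the polygalacturonases, which cut the galacturonic acid backbone of pectin and are known for their part in fruit softening and in the separation of cells at shedding. Family 2 glycosyltransferases pass sugars from nucleotide sugars to growing chains, and the plant cellulose synthases and related enzymes belong to it. Nucleotide-diphospho-sugar transferases also use nucleotide sugars, and several plant members add sugars to wall polymers or wall proteins.

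The sequences that tie each name to a transcript are the primers with which the study assayed these 3 unigenes by RT-qPCR, shown in lower case. The forward primers are listed in the 5′ to 3′ direction. The reverse primers stand under a 3′ to 5′ heading and are given as listed, since no transcript sequence was used here against which their direction could be settled.
Glycosyl hydrolases family 28, forward: agtgaaagcaaatggcaaac
Glycosyl hydrolases family 28, reverse as listed: gaccaggcagagaggaagac
Glycosyltransferase like family 2, forward: cttccagtcttctttgtcacc
Glycosyltransferase like family 2, reverse as listed: ctgaactgcctctttgggtaa
Nucleotide-diphospho-sugar transferase, forward: ctgctctttttgtcccgtg
Nucleotide-diphospho-sugar transferase, reverse as listed: ttgtggctaaggaacccgt
The primers were between 19 and 21 bases long and held between 40.0% and 60.0% G and C.

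Some groups stood apart by the species of the best protein hit of their unigenes. The annotation held covered 1017 of the listed unigenes. Among them, 146 had their best hit in Arabidopsis thaliana, and the summed FPKM of these was 383 in abnormal fruits at 12 DAF, 135 in abnormal fruits at 22 DAF, 327 in normal fruits at 12 DAF and 499 in normal ones at 17 DAF. All 146 were listed at 0 in the other 8 groups, abnormal fruits at 17 DAF included. A further 54 had their best hit in fungi or oomycetes, and these summed to 6.83 FPKM in abnormal fruits at 12 DAF, 2.27 FPKM in normal fruits at 12 DAF and 1.68 FPKM in normal fruits at 17 DAF, with 1 of the 54 above 0 in each of these 3 groups. In the other 9 groups they summed to between 63.3 and 130 FPKM, with the highest sum in abnormal fruits at 17 DAF. The comparison at 17 DAF therefore sets a group with no Arabidopsis-type unigenes above 0 against one with 113 of them above 0, and a group with 35 fungal or oomycete-type unigenes above 0 against one with 1. Best hits of the 3 sugar enzymes themselves were not used here. Whether their transcripts come from almond or from another organism in the samples was therefore not checked. The part of these unigenes in the results below was not tested.

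**Figure D1:**
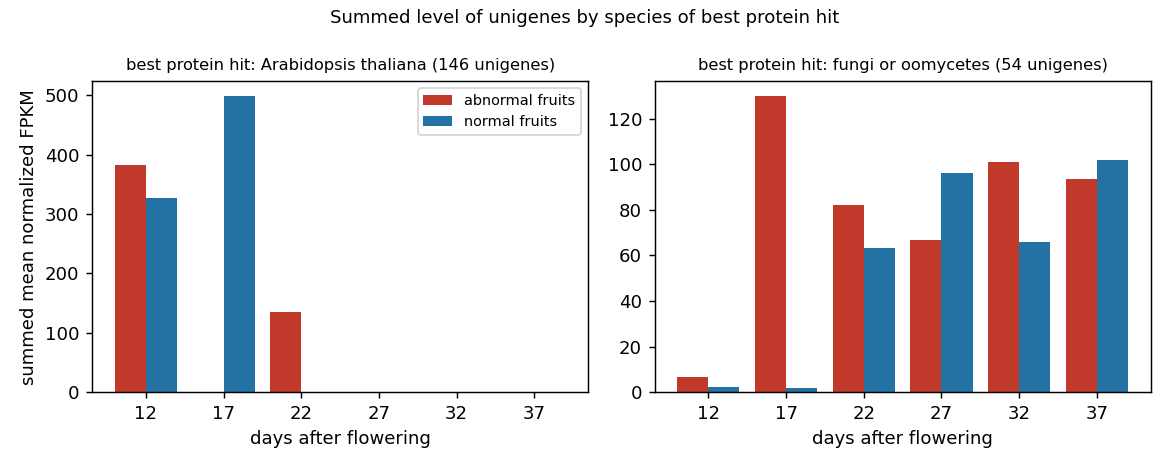
Summed mean normalized FPKM (y axes) of the 146 unigenes with a best protein hit in Arabidopsis thaliana (left) and the 54 with one in fungi or oomycetes (right), against days after flowering, with abnormal fruits in red and normal fruits in blue. The left bars are above 0 in 4 groups only, 382.6 and 134.6 in abnormal fruits at 12 and 22 DAF and 326.8 and 498.9 in normal fruits at 12 and 17 DAF, and the right bars are lowest in abnormal fruits at 12 DAF and in both early groups of normal fruits, 12 and 17 DAF.

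The polygalacturonase-family unigene was highest at different stages in abnormal and normal fruits, and in abnormal fruits it had a second rise up to 37 DAF. In abnormal fruits, glycosyl hydrolases family 28 stood at 0.117 FPKM on day 12, 53.1 on day 17, 10.6 on day 22, 1.09 on day 27, 11.2 on day 32 and 32.3 on day 37. In normal fruits it stood at 0.778 FPKM on day 12, 1.03 on day 17, 5.95 on day 22, 2.42 on day 27, 56.0 on day 32 and 16.6 on day 37. The early peak of abnormal fruits, at 17 DAF, thus reached nearly the level that normal fruits showed at 32 DAF, the highest of the 12 groups. Both kinds of fruit had a low level at 27 DAF and a higher one after it. At its peaks the unigene lay above 91.0% of the listed unigenes in abnormal fruits at 17 DAF and above 90.9% of them in normal fruits at 32 DAF. These shares include unigenes listed at 0, which were 4244 in the first group and 3804 in the second. The level varied 478-fold between the highest and the lowest group, 453-fold among abnormal groups and 72.0-fold among normal groups. The lowest of these levels are under 1 FPKM, and how many reads lie behind them is unknown.

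**Figure D2:**
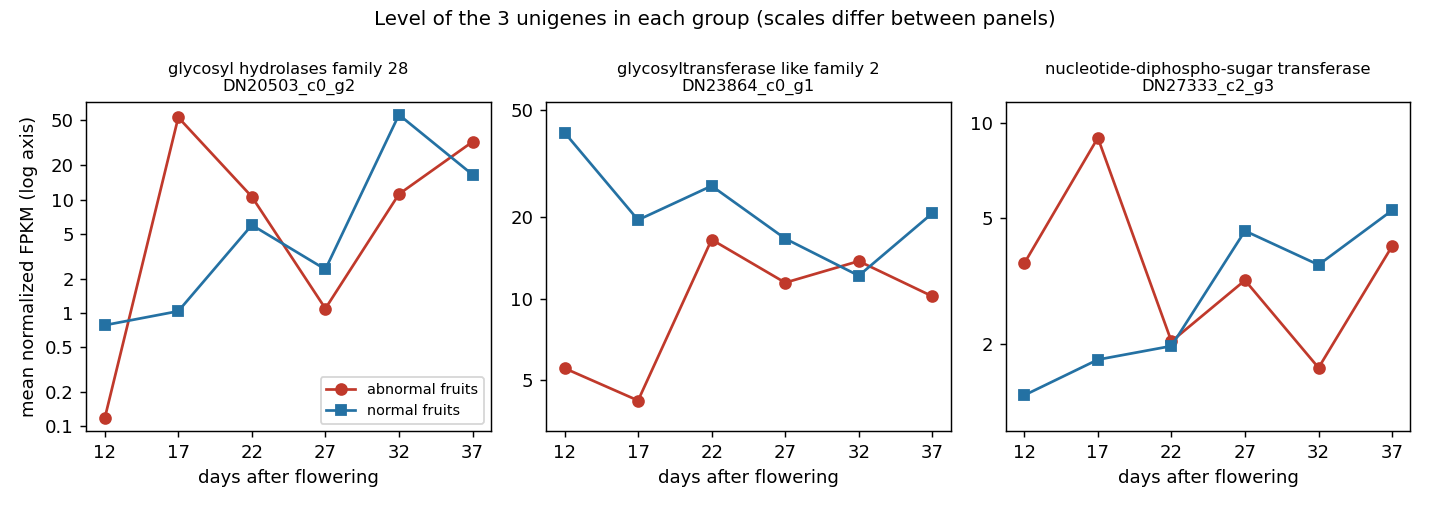
Mean normalized FPKM (log axes, scales differ) of the 3 unigenes against days after flowering, 1 point per group, abnormal fruits as red circles and normal fruits as blue squares. Glycosyl hydrolases family 28 peaks at 53.1 FPKM at 17 DAF in abnormal and at 56.0 FPKM at 32 DAF in normal fruits, glycosyltransferase like family 2 is lower in abnormal fruits at 5 of 6 stages, and nucleotide-diphospho-sugar transferase is highest in abnormal fruits at 17 DAF.

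Changes are given on the scale of log2(FPKM + 1), as abnormal minus normal, and a difference over 1 in size was counted as past the threshold. Unigenes at 0 in both fruit types at a stage have a difference of 0. They are kept in the shares and medians over all listed unigenes. The added 1 understates the change of weakly expressed unigenes. Glycosyl hydrolases family 28 was past the threshold at 2 of 6 stages, in opposite directions. At 17 DAF it was 51.3-fold higher in abnormal fruits, a difference of 4.73. At that stage 41.5% of the listed unigenes were past the threshold in either direction, and 1.42% had a larger difference. At 32 DAF it was 5.02-fold lower in abnormal fruits (−2.23), where 15.9% of the listed unigenes were past the threshold and 2.16% had a lower value. The differences at 12, 22, 27 and 37 DAF were −0.67, 0.74, −0.71 and 0.92, which change sign from stage to stage. A minimum of FPKM was not set for the 3 unigenes, and all 3 were above 0 in all 12 groups, as were 3099 of the listed unigenes.

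Between neighbouring stages the same unigene moved past the threshold at 5 of 5 steps in abnormal fruits and at 4 of 5 steps in normal fruits. In abnormal fruits the log2 change was 5.60 at the step between 12 and 17 DAF (36.7% of listed unigenes past the threshold in either direction), −2.22 between 17 and 22 DAF (32.4%), −2.47 between 22 and 27 DAF (34.1%), 2.54 between 27 and 32 DAF (23.8%) and 1.45 between 32 and 37 DAF (26.2%). In normal fruits it was 0.19 between 12 and 17 DAF (18.5%), 1.77 between 17 and 22 DAF (34.6%), −1.02 between 22 and 27 DAF (27.4%), 4.06 between 27 and 32 DAF (26.4%) and −1.70 between 32 and 37 DAF (23.7%). The first step was the one at which the fruit types parted most, with an increase in abnormal fruits that 0.392% of the listed unigenes exceeded. Over the 12 groups the standard deviation of its log2 level was 1.99, and 3.91% of the listed unigenes varied more.

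The glycosyltransferase was low in abnormal fruits at the first 2 stages, and the gap was smaller at the later stages. In abnormal fruits, glycosyltransferase like family 2 stood at 5.51 FPKM on day 12, 4.18 on day 17, 16.6 on day 22, 11.5 on day 27, 13.8 on day 32 and 10.2 on day 37. In normal fruits it stood at 41.3 FPKM on day 12, 19.6 on day 17, 26.2 on day 22, 16.7 on day 27, 12.2 on day 32 and 20.7 on day 37. The 2 lowest of the 12 levels were those of abnormal fruits at 17 and 12 DAF, and the highest was that of normal fruits at 12 DAF. Abnormal fruits were lower at 5 of 6 stages, with 32 DAF as the exception, and their median level was 10.8 FPKM against 20.2 FPKM in normal fruits.

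The difference of glycosyltransferase like family 2 was −2.70 at 12 DAF, a 7.50-fold lower level in abnormal fruits, where 30.6% of the listed unigenes were past the threshold and 3.57% had a lower value. At 17 DAF it was −1.99, or 4.68-fold lower, and 12.2% of the listed unigenes had a lower value. At 22, 27, 32 and 37 DAF the differences were −0.63, −0.51, 0.17 and −0.96, none of them past the threshold. In normal fruits the level decreased by 1.04 on the log2 scale between 12 and 17 DAF. The only other step past the threshold was an increase of 1.76 in abnormal fruits between 17 and 22 DAF. The abnormal groups spanned 3.96-fold and the normal groups 3.40-fold, a far narrower range than that of glycosyl hydrolases family 28.

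The nucleotide-diphospho-sugar transferase had the lowest mean level of the 3 and was higher in abnormal fruits early and lower in them late. In abnormal fruits it stood at 3.59 FPKM on day 12, 8.96 on day 17, 2.03 on day 22, 3.17 on day 27, 1.68 on day 32 and 4.07 on day 37. In normal fruits it stood at 1.37 FPKM on day 12, 1.78 on day 17, 1.96 on day 22, 4.55 on day 27, 3.55 on day 32 and 5.28 on day 37. Abnormal fruits at 17 DAF stood above the other 11 groups, while normal fruits were low up to 22 DAF and higher from 27 DAF on.

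Nucleotide-diphospho-sugar transferase was past the threshold at 17 DAF only, with a difference of 1.84 or a 5.04-fold higher level in abnormal fruits, and 9.80% of the listed unigenes had a larger difference. At 12 DAF the difference was 0.95, just under the threshold, and it passed at 1.09 when the columns were scaled to the same total. At 22 DAF the levels of both fruit types were nearly equal, with a difference of 0.03. At 27, 32 and 37 DAF it was −0.41, −0.77 and −0.31. In abnormal fruits the log2 change was 1.12 between 12 and 17 DAF and −1.72 between 17 and 22 DAF, and no step in normal fruits was past the threshold.

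**Figure D3:**
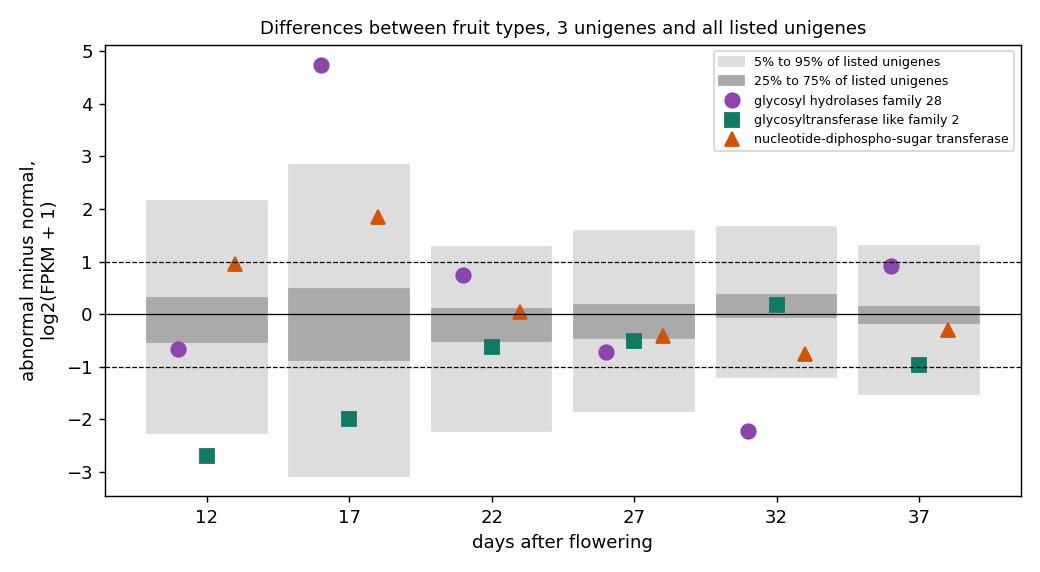
Difference in log2(FPKM + 1), abnormal minus normal fruits (y axis), by days after flowering (x axis), for the 3 unigenes as coloured points, over bands that hold the middle 50% (dark grey) and the middle 90% (light grey) of the 8676 listed unigenes. Dashed lines mark the threshold of 1 in either direction. At 17 DAF all 3 points lie past it, at 4.73, −1.99 and 1.84, and at 22, 27 and 37 DAF none does.

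Set side by side, the 3 unigenes were past the threshold together at 17 DAF and at no other stage with the added 1. With a pseudocount of 0.1 they were also all past it at 12 DAF, as were 3409 of the 8676 listed unigenes. There glycosyl hydrolases family 28 was 6.64-fold lower and nucleotide-diphospho-sugar transferase 2.62-fold higher in abnormal fruits, at low levels. With a threshold of 2 only glycosyl hydrolases family 28 was past it at 17 DAF, beside 1808 of the listed unigenes. At 17 DAF, 3 of 3 were past it, 2 higher and 1 lower in abnormal fruits, beside 41.5% of all listed unigenes (18.0% higher and 23.5% lower). At 12 DAF 1 of 3 was past it, lower in abnormal fruits, beside 30.6% of all listed unigenes in either direction and 16.9% lower. At 32 DAF 1 of 3 was past it, again lower, beside 15.9% in either direction and 6.32% lower. None of the 3 was past it at 22, 27 and 37 DAF, where 21.7%, 20.8% and 14.5% of the listed unigenes were. The stage with the most listed unigenes past the threshold was thus also the only one at which all 3 sugar enzymes were, with the added 1. Glycosyltransferase like family 2 had its largest difference at 12 DAF, not at 17 DAF. With 3 members these counts do not set them apart from the background.

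Abnormal fruits at 17 DAF were an extreme group for each of them. They held the lowest level of glycosyltransferase like family 2, the highest of nucleotide-diphospho-sugar transferase and the second highest of glycosyl hydrolases family 28. Among the 3099 unigenes above 0 in all groups, 33.8% also had their lowest level in abnormal fruits at 17 DAF and 9.39% their highest. Against normal fruits of the next stage, 22 DAF, abnormal fruits at 17 DAF still differed by 2.96 for glycosyl hydrolases family 28, −2.39 for glycosyltransferase like family 2 and 1.75 for nucleotide-diphospho-sugar transferase. Abnormal fruits at 22 DAF differed from normal fruits at 17 DAF by 2.51, −0.23 and 0.13 for the same unigenes in this order. Of the values of the second pair, that of glycosyl hydrolases family 28 alone was past the threshold. These 2 pairs of groups mix fruit type and stage. They are given because the Arabidopsis-type unigenes were above 0 in the groups of the second pair and at 0 in those of the first. Within the second pair their sum was 135 FPKM for the abnormal group and 499 for the normal one. The fungal or oomycete-type unigenes differed more within the second pair than within the first. Their sums, abnormal group first, were 82.0 against 1.68 FPKM in the second pair and 130 against 63.3 in the first. Whether the abnormal groups at 17 and 22 DAF carry each other's label was not tested, and the labels were used as given.

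Median-of-ratios scaling placed abnormal below normal fruits by 0.18 on the log2 scale at 17 DAF, by 0.28 at 22 DAF and by 0.29 at 27 DAF, and by less than 0.1 in either direction at the other stages. Relative to that shift, the differences at 17 DAF were 5.01 for glycosyl hydrolases family 28, −1.87 for glycosyltransferase like family 2 and 2.06 for nucleotide-diphospho-sugar transferase. At 22 and 27 DAF the same scaling gave −0.37 and −0.23 for glycosyltransferase like family 2, 0.22 and −0.17 for nucleotide-diphospho-sugar transferase, and 0.98 and −0.48 for glycosyl hydrolases family 28, so these small differences depend on the scaling. Nucleotide-diphospho-sugar transferase at 12 DAF was past the threshold under both scalings (1.09 and 1.02). None of the 18 differences of the 3 unigenes changed sign under either scaling.

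The courses of the 3 unigenes over the 12 groups were compared by Pearson's r on log2(FPKM + 1), as a description of group means that share libraries. Glycosyltransferase like family 2 ran opposite to nucleotide-diphospho-sugar transferase (r = −0.68 over 12 groups, −0.86 over the 6 abnormal and −0.65 over the 6 normal groups). Without abnormal fruits at 17 DAF this r was −0.49. Glycosyl hydrolases family 28 had r = 0.49 with nucleotide-diphospho-sugar transferase and r = −0.31 with glycosyltransferase like family 2, which became 0.30 and −0.07 without abnormal fruits at 17 DAF. Each unigene was also compared between fruit types over the 6 stages. The r between the abnormal and the normal course was 0.34 for glycosyl hydrolases family 28, −0.39 for glycosyltransferase like family 2 and −0.24 for nucleotide-diphospho-sugar transferase. With the log2 sum of the fungal or oomycete-type unigenes, glycosyl hydrolases family 28 had r = 0.70, nucleotide-diphospho-sugar transferase r = 0.52 and glycosyltransferase like family 2 r = −0.32. With the sum of the unigenes with a best hit in Prunus, the genus of almond, the r was 0.44, 0.66 and −0.34 in the same order, and with that of the Arabidopsis-type unigenes it was −0.62, −0.50 and 0.20.

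The unigenes with the most similar courses were sought among 5822 others with at least 5 FPKM in some group. Glycosyl hydrolases family 28 had few close neighbours, with 8 at r of at least 0.8, against 178 for glycosyltransferase like family 2 and 31 for nucleotide-diphospho-sugar transferase. The closest to glycosyl hydrolases family 28 was TRINITY_DN15531_c0_g2 (r = 0.92), annotated as the 60S ribosomal protein L39, a part of the large ribosomal subunit, with a best hit in the oomycete Saprolegnia parasitica. Its levels were 0, 6.34, 2.84, 1.25, 3.55 and 5.08 FPKM in abnormal fruits and 0, 0, 1.16, 2.75, 7.55 and 4.72 FPKM in normal fruits between 12 and 37 DAF. The fourth, TRINITY_DN18113_c0_g1 (r = 0.84), was annotated as the 40S ribosomal protein S27-3, with a best hit in the mushroom Agaricus bisporus. Both were listed at 0 in abnormal fruits at 12 DAF and in normal ones at 12 and 17 DAF. The remaining 3 of its first 5, TRINITY_DN27529_c3_g1 (r = 0.92), TRINITY_DN21467_c1_g5 (0.85) and TRINITY_DN17595_c0_g1 (0.83), have no annotation used here.

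The closest to nucleotide-diphospho-sugar transferase was TRINITY_DN15250_c0_g1 (r = 0.91), annotated as Metacaspase-1, of a family of plant proteases related to caspases. It stood at 20.6, 49.5, 11.6, 24.5, 12.6 and 29.7 FPKM in abnormal fruits and at 8.81, 9.35, 13.9, 19.2, 16.5 and 20.01 FPKM in normal fruits between 12 and 37 DAF. Like the transferase, it was highest in abnormal fruits at 17 DAF and lowest in normal fruits at 12 DAF. TRINITY_DN24374_c0_g3 (r = 0.86), annotated as a Ras-group-related protein with leucine-rich repeats, and TRINITY_DN19385_c0_g1 (r = 0.85), annotated as LOB domain-containing protein 15 of a plant transcription factor family, were the fourth and the fifth. TRINITY_DN10443_c0_g1 (r = 0.87) and TRINITY_DN21845_c0_g5 (r = 0.87) carried no protein name. None of these 5 stayed among the first 5 without abnormal fruits at 17 DAF, or with Spearman's rho, so this list depends on that group and on the measure of likeness. The first 5 neighbours of glycosyltransferase like family 2, TRINITY_DN23952_c0_g4, TRINITY_DN24923_c1_g1, TRINITY_DN22002_c0_g1, TRINITY_DN23496_c1_g5 and TRINITY_DN27064_c2_g1, had r between 0.92 and 0.93 and no annotation used here.

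The annotation held gave 33 further unigenes in 6 lists of the same or related enzymes, and 22 of them were listed. Of these 22, at 17 DAF 7 were higher and 7 were lower in abnormal fruits, 1 was higher and 4 were lower at 12 DAF, 3 were higher and 3 lower at 22 DAF, 2 were lower at 27 DAF and 1 was lower at 32 DAF. Their share past the threshold was 63.6% at 17 DAF and 22.7% at 12 DAF, beside 41.5% and 30.6% of all listed unigenes. At 22, 27 and 32 DAF it was 27.3%, 9.09% and 4.55%, beside 21.7%, 20.8% and 15.9%. At 37 DAF none was past it, beside 14.5%. Their median difference was 0.30 at 17 DAF and 0.00 at 12 DAF, against 0.00 over all listed unigenes at both stages. Of the 22, 6 had their best hit in Arabidopsis thaliana, and these were all among the 7 lower at 17 DAF, where they were listed at 0 in abnormal fruits. Among the other 16, 7 were higher and 1 was lower at 17 DAF, with a median difference of 0.74. Arabidopsis-type unigenes were at 0 in abnormal fruits at 17 DAF and so could not be higher in them. Setting them aside could only take away lower ones, so no direction is read from the changed balance. The lower one left, TRINITY_DN15672_c0_g1, was also listed at 0 in abnormal fruits at 17 DAF. Matching counts for all listed unigenes without the Arabidopsis type were not made.

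A single other unigene of glycosyl hydrolases family 28 was listed, TRINITY_DN15727_c0_g1, annotated as the polygalacturonase ADPG1, which in Arabidopsis thaliana acts in the opening of pods and anthers, and with a best hit in peach. It had the same peaks as TRINITY_DN20503_c0_g2 at a lower level. In abnormal fruits it stood at 10.9 FPKM on day 17 and 2.69 FPKM on day 37, and in normal fruits at 3.37 FPKM on day 32 and 1.57 FPKM on day 37. In the other 8 groups it was listed at 0. Its r with TRINITY_DN20503_c0_g2 was 0.82, which ranked 8 among the 5822 unigenes. Its difference was 3.57 on day 17, −2.13 on day 32 and 0.52 on day 37, so both polygalacturonase-family unigenes were higher in abnormal fruits at 17 DAF and lower in them at 32 DAF.

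Pectinesterases strip methyl groups from pectin and open it to polygalacturonases. Unigenes of these enzymes, and unigenes with an invertase or pectin methylesterase inhibitor domain, made up a list of 9, of which 8 were listed. A putative invertase inhibitor was among them. At 17 DAF 4 of the 8 were higher and 1 was lower in abnormal fruits, with a median difference of 0.81, beside 18.0% of all listed unigenes higher and 23.5% lower. At 12 DAF 1 was lower and none higher (median −0.19), at 22 DAF 1 was higher and 2 were lower (median −0.09), and none was past the threshold from 27 DAF on. Of all listed unigenes, 30.6% were past it at 12 DAF and 21.7% at 22 DAF, then 20.8%, 15.9% and 14.5% at 27, 32 and 37 DAF. TRINITY_DN13942_c0_g1, annotated as Pectinesterase 47 but with the inhibitor domain as its domain held, stood at 41.3 FPKM in abnormal fruits at 17 DAF. It was listed at 0 in the other 11 groups. Its difference of 5.40 was larger than that of glycosyl hydrolases family 28 at the same stage. The other 3 that were higher, singled out after their values were seen, were smaller in difference. TRINITY_DN16980_c0_g1, a probable pectinesterase 29, stood at 4.91 FPKM in abnormal fruits and 0.873 FPKM in normal fruits at 17 DAF (1.66), and TRINITY_DN26340_c0_g1, also annotated as a pectinesterase, at 23.3 and 9.95 FPKM in the same order (1.15). TRINITY_DN15790_c0_g1, a further pectinesterase, stood at 1.29 FPKM in abnormal fruits and was listed at 0 in normal fruits (1.195). The one that was lower, TRINITY_DN46189_c0_g1 (−1.71), had its best hit in Arabidopsis thaliana and was named for the same reason.

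**Figure D4:**
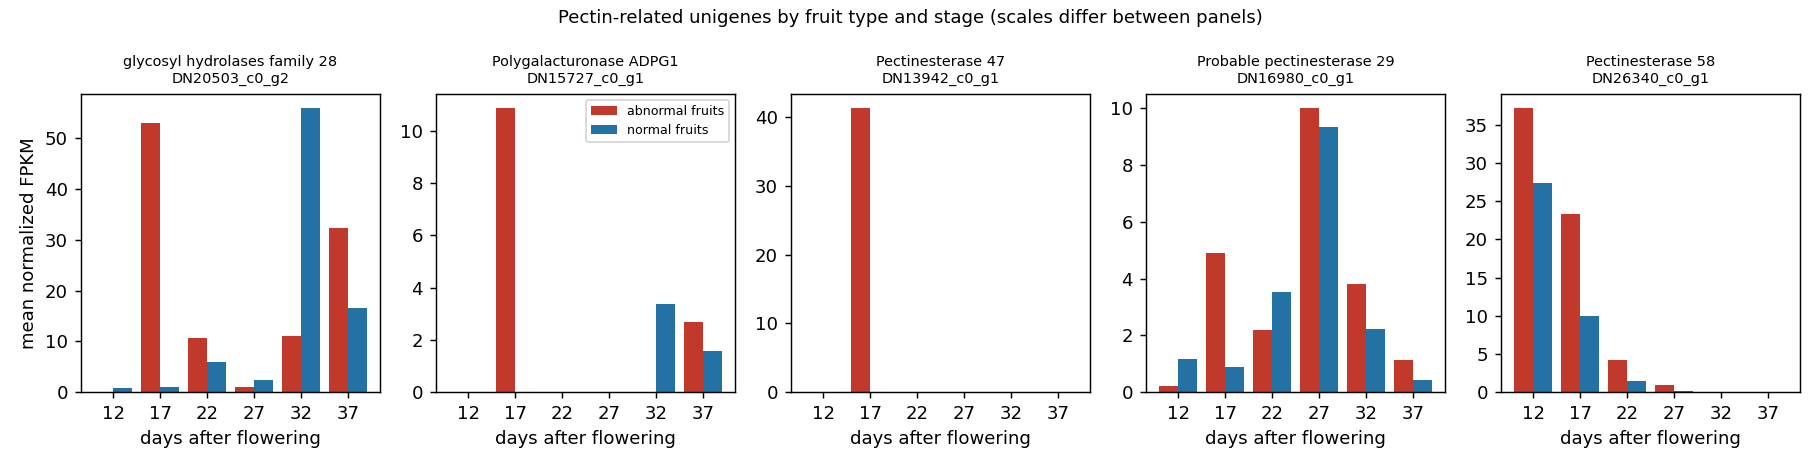
Mean normalized FPKM (y axes, scales differ) against days after flowering for 5 pectin-related unigenes, with abnormal fruits in red and normal fruits in blue. The pectinesterases shown were all higher in abnormal fruits at 17 DAF, and some were picked after their values were seen. Others of that list are not shown, among them TRINITY_DN15790_c0_g1 (1.195 at 17 DAF), Pectinesterase 31 (0.30) and TRINITY_DN46189_c0_g1 (−1.71). Both unigenes of glycosyl hydrolases family 28 have their highest abnormal level at 17 DAF (53.1 and 10.9 FPKM) and their highest normal level at 32 DAF (56.0 and 3.37 FPKM), Pectinesterase 47 is above 0 only in abnormal fruits at 17 DAF, and the last 2 have other courses.

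Both other nucleotide-diphospho-sugar transferases were weakly expressed and had other courses than TRINITY_DN27333_c2_g3. TRINITY_DN16040_c0_g1 reached 2.24 FPKM in abnormal fruits at 32 DAF and 2.81 FPKM in normal fruits at 27 DAF, and it was past the threshold at 27 DAF only, with a difference of −1.11. TRINITY_DN16597_c0_g1 was above 0 at 37 DAF only, with 3.36 FPKM in abnormal fruits and 4.37 FPKM in normal fruits. The second unigene held for glycosyl hydrolases family 28, besides ADPG1, and the 1 held for glycosyltransferase family 2 were not among the listed ones.

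Of 8 other sugar transferases, 6 were listed, and 1 was higher and 3 were lower at both 12 and 17 DAF, with a median difference of −0.56 at 12 DAF and −0.51 at 17 DAF. These are 4 of 6 at each stage, beside 30.6% of all listed unigenes at 12 DAF and 41.5% at 17 DAF. TRINITY_DN15381_c0_g2, annotated as Monogalactosyldiacylglycerol synthase 2, which makes a galactolipid of plastid membranes, was the one that was higher, at 74.9 FPKM in abnormal fruits and 5.11 FPKM in normal fruits at 17 DAF (3.63) and at 15.2 and 4.70 FPKM in the same order at 12 DAF (1.505). TRINITY_DN1297_c0_g1, annotated as Xyloglucan 6-xylosyltransferase 2, which adds xylose side chains to the hemicellulose xyloglucan, had its best hit in Arabis alpina. It stood at 7.85 FPKM in normal fruits at 12 DAF and was listed at 0 in every other group, abnormal fruits at 12 DAF included (−3.15). TRINITY_DN15672_c0_g1, annotated as UDP-glycosyltransferase 87A1, was listed at 0 in abnormal fruits at 17 DAF and stood at 3.75 FPKM in normal fruits (−2.25). Its best hit was in Malus domestica, and in abnormal fruits it was above 0 at 22 DAF only (1.24 FPKM). The others that were lower at 17 DAF had their best hits in Arabidopsis thaliana and were listed at 0 in abnormal fruits there.

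Of 11 other wall hydrolases, 5 were listed, and 1 was higher and 3 were lower at 17 DAF, beside 41.5% of all listed unigenes past the threshold in either direction. The 3 that were lower had their best hits in Arabidopsis thaliana and were listed at 0 in abnormal fruits at 17 DAF. None was past the threshold at 12 DAF, 1 was higher and 1 lower at 22 DAF, and 1 was lower at 27 DAF. The shares of all listed unigenes past it were 30.6%, 21.7% and 20.8% at these stages. TRINITY_DN1526_c0_g1, annotated as a probable xyloglucan endotransglucosylase/hydrolase protein 15 of the enzymes that cut and rejoin xyloglucan, was listed at 0 in abnormal fruits at 17 DAF and stood at 5.44 FPKM in normal fruits (−2.69). Its values at 12 DAF were 6.91 FPKM in abnormal fruits and 5.23 FPKM in normal fruits. From 27 DAF on it was listed at 0 in both fruit types.

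**Figure D5:**
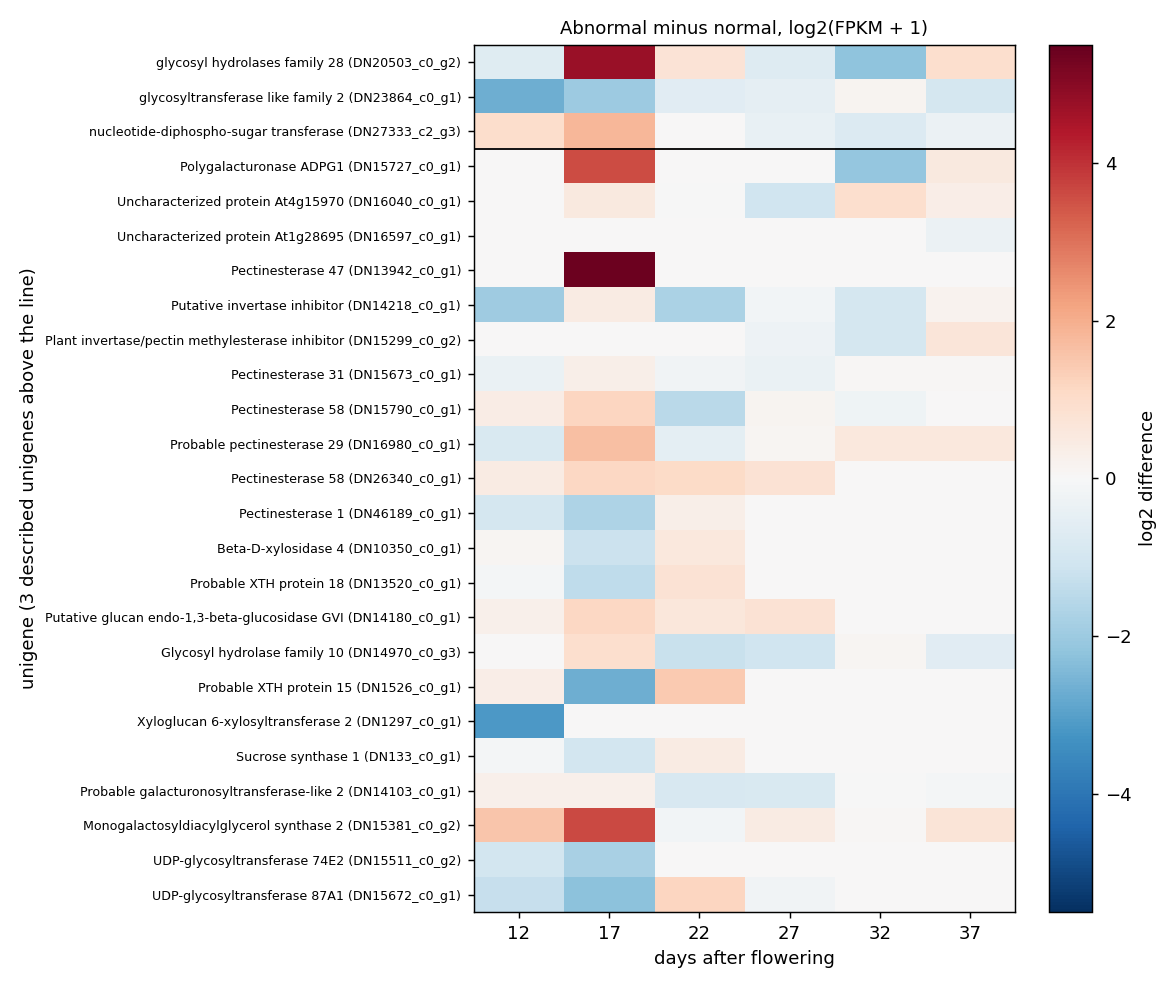
Difference in log2(FPKM + 1), abnormal minus normal fruits, as colour (red, higher in abnormal; blue, lower in abnormal) for the 3 unigenes (above the line) and the 22 listed unigenes of related enzymes (rows) by days after flowering (columns); XTH stands for xyloglucan endotransglucosylase/hydrolase. The strongest colours are at 17 DAF for glycosyl hydrolases family 28 (4.73), Pectinesterase 47 (5.40), Monogalactosyldiacylglycerol synthase 2 (3.63) and Polygalacturonase ADPG1 (3.57).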

How the data were processed

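The authors assembled unigenes with Trinity, aligned clean reads to them with Bowtie2, estimated counts with RSEM, normalized these with DESeq2 and computed FPKM from effective length and library size. The deposited FPKM values are 1 authors' mean per unigene and group over 3 replicates, in 12 columns for 8676 unigenes. Sample labels and column names gave the groups. Depth behind single values is unknown, and no interval or detection limit was computed. The reference gene table matched 0 unigene IDs, and names and primers come from the study's supplementary tables, which were held in part, so they served for names and best-hit species and for no overlap or enrichment.

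Differences in log2(FPKM + 1) were taken without a test, as the files held no replicates. The threshold of 1 is the fold threshold of the study's methods, used without its P-value. The text names the 3 unigenes, the 5 unigenes with the highest Pearson r to each over the 12 groups, listed members of their own families and, from other lists, unigenes past 2 at 12 or 17 DAF, with 4 pectinesterases beyond this rule that were named after their values were seen. The members, lists and rules were chosen with earlier results of these data known. Alternatives were pseudocounts of 0.1 and 5, minimum levels of 1 and 5 FPKM, 2 scalings, a threshold of 2 and Spearman's rho. The minimum of 1 FPKM could not change a count, since with the added 1 a difference over 1 needs a level above 1 FPKM. A minimum of 20 FPKM for neighbours and the pairs of groups across stages were added after seeing the data. The counting was checked on simulated data. Calculations used Python 3.11.15 with pandas 2.3.3, numpy 2.4.6 and scipy 1.17.1, and plots matplotlib 3.10.9. RT-qPCR and phenotypes were not analysed here.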

Additional observations from a re-analysis of the deposited data

How the results depend on the processing

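Of 90 differences of the 3 unigenes under alternative settings, 81 kept their direction and side of the threshold, 7 passed it only under the alternative, 2 passed it only as reported, and none changed sign. Another pseudocount or threshold cannot change a sign, so only the 2 scalings could have done so. No paired analysis was possible because the files give 1 mean per group, and for the same reason leaving out replicates could not be run. With a pseudocount of 0.1, which weighs low levels more, the differences of glycosyl hydrolases family 28 were −2.02 at 12 DAF and −1.08 at 27 DAF, that of glycosyltransferase like family 2 was −1.02 at 37 DAF, and those of nucleotide-diphospho-sugar transferase were 1.33 at 12 DAF and −1.04 at 32 DAF. This put 3, 1, 2 and 1 of the 3 unigenes past the threshold at 12, 27, 32 and 37 DAF. Of the 8676 listed unigenes, 3409, 2486, 2108 and 1911 were past it at these stages with the same pseudocount. Nucleotide-diphospho-sugar transferase at 12 DAF was also past it, at 1.09 with equal column totals and 1.02 with median-of-ratios scaling, so that 2 of 3 were past it there. Under these scalings, in this order, 2727 and 2733 of the listed unigenes were past it at 12 DAF. With a threshold of 2, glycosyltransferase like family 2 (−1.99) and nucleotide-diphospho-sugar transferase (1.84) were not past it at 17 DAF, which left 1 of 3.

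Steps of glycosyl hydrolases family 28 past the threshold in normal fruits numbered 2 with a pseudocount of 5 and 1 with a threshold of 2. Those of glycosyltransferase like family 2 in normal fruits numbered 0 in both cases and 2 with equal totals, and in abnormal fruits 0 with a threshold of 2. Those of nucleotide-diphospho-sugar transferase in abnormal fruits numbered 0 in both cases and 1 with equal totals, and in normal fruits 1 with a pseudocount of 0.1. Of the first 5 neighbours of glycosyl hydrolases family 28, glycosyltransferase like family 2 and nucleotide-diphospho-sugar transferase in this order, 3, 1 and 0 stayed among the first 5 with Spearman's rho, 3, 3 and 0 without abnormal fruits at 17 DAF, and 2, 3 and 2 with median-of-ratios scaling, and 3 of the first of them with a minimum of 20 FPKM.

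Related unigenes past the threshold numbered 9, 12, 7, 3 and 3 at 12, 22, 27, 32 and 37 DAF with a pseudocount of 0.1, then 3, 4, 1, 0 and 0 at 12, 17, 22, 27 and 32 DAF with a pseudocount of 5, then 1, 5, 0 and 0 at 12, 17, 22 and 27 DAF with a threshold of 2, and 0 at 27 DAF with either scaling. All listed unigenes past it numbered 2838, 2108 and 1911 at 22, 32 and 37 DAF with a pseudocount of 0.1. From 12 to 37 DAF they numbered 1306, 2045, 647, 761, 508 and 536 with a pseudocount of 5 and 1014, 1808, 703, 722, 542 and 545 with a threshold of 2. With a minimum of 5 FPKM they numbered 1180 at 22 DAF and 892 at 32 DAF.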
